A study of Mus musculus with 10 samples.

Results

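The genes of glycerophospholipid synthesis and remodelling were described by their RNA levels in the mouse spinal cord. They were chosen by name, as the enzymes that make phosphatidylcholine, phosphatidylethanolamine, phosphatidylserine, phosphatidylinositol and cardiolipin, exchange their acyl chains or cleave them. All 42 of these genes were found, of 25232 genes listed for the series. RNA was sequenced from the spinal cord of female mice 90 days old, 5 SOD1 G93A animals and 5 wild type (WT) littermates on a C57BL/6J background. The SOD1 G93A animals, whose strain is B6.Cg-Tg(SOD1-G93A)1Gur/J, have, beside the mouse's own Sod1, a high-copy transgene for mutant human SOD1, and are a model of amyotrophic lateral sclerosis. The transgene is present in every cell and its product is made above the normal amount, so the mutation and the overexpression cannot be told apart against WT littermates. The study's methods name the lumbar cord, while GEO's labels name no level of the cord.

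The value used for each gene is its base mean, the authors' mean of normalised read counts over all 10 libraries of both genotypes. It is 1 number per gene, so no value of a single mouse, no spread between mice, no library depth and no test between SOD1 G93A and WT could be obtained from it. Every level below is therefore a description of the pooled cord, and the precision of each is unknown. To compare genes, the base mean was divided by the length of the gene's merged exons in kb. In bulk tissue, fewer cells of a type and less RNA per cell cannot be told apart.

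Glycerophospholipids are built on glycerol 3-phosphate, which is acylated first by GPAT and then by AGPAT enzymes to phosphatidic acid. Phosphatidic acid is either dephosphorylated by lipins to diacylglycerol or activated, by CDS enzymes among others, to CDP-diacylglycerol. Diacylglycerol is the acceptor for choline and ethanolamine head groups in the Kennedy pathway. CDP-diacylglycerol is the precursor of phosphatidylinositol and cardiolipin. Finished phospholipids are then remodelled in the Lands cycle, in which phospholipases A2 remove an acyl chain and lysophospholipid acyltransferases add another. Myelin and synaptic membranes are rich in these lipids.

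The tissue label was checked against markers fixed for that purpose. The 5 oligodendrocyte markers lay between percentiles 99.2 and 100 of all genes with reads, the 5 astrocyte markers between 87.3 and 99.9, the 6 neuronal markers between 68 and 100 and the 4 microglial markers between 74.2 and 89.9. The 3 endothelial markers lay between percentiles 58.7 and 89.2. The 4 caudal Hox genes were all above the median, Hoxc10 at percentile 78.3, Hoxd10 at 54.9, Hoxa10 at 52.3 and Hoxc9 at 50.8. Among markers of other tissues, the 3 liver genes lay between percentiles 33.9 and 39.8 and the 3 muscle genes between 40.6 and 69. The globin genes Hba-a1 and Hbb-bs were listed at 0 and the erythroid gene Alas2 was at percentile 48.1.

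Sequences are shown for both genes of the rate-limiting cytidylyl transferase step of phosphatidylcholine synthesis, Pcyt1a and Pcyt1b, because their start regions differ in CpG content while both are expressed. The choice was made after the values were seen. Each is the RefSeq window of 250 bases before and 50 bases after a start site (GRCm38.p6), the one with the most CpG of that gene, with every CpG in capitals. The Pcyt1a window is chr16:32430671-32430970 on the plus strand, and the Pcyt1b window is chrX:93674862-93675161 on the plus strand.
Pcyt1a: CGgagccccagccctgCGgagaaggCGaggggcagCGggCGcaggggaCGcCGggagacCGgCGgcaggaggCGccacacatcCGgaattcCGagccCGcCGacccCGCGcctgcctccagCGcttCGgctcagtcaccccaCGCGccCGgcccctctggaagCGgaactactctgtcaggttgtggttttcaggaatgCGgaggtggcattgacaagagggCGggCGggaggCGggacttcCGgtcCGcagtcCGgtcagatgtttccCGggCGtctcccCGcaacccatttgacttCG
Pcyt1b: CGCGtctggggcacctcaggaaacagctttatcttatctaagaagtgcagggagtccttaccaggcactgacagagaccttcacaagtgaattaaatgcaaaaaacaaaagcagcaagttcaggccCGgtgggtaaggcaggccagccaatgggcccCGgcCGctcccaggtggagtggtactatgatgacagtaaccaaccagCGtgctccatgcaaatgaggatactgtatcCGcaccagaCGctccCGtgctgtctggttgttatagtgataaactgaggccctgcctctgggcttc
The Pcyt1a window held 33 CpG with 69.7% G and C, and the Pcyt1b window 9 CpG with 53.3%. The other Pcyt1b window, at chrX:93654613-93654912, held 2 CpG.

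RefSeq start windows were found for 37 of the 42 genes, with 55 windows in all, and 5 genes (Agpat5, Cdipt, Gpat4, Pcyt2 and Ptdss1) had none. The median window of these genes held 23 CpG, against 16 over 19547 windows of 15883 genes with reads, and had 63.3% G and C against 58%. At least 1 window with 10 or more CpG was found for 33 of the 37 genes. The share of all genes with such a window was not computed, so this count is a description only. The other 4 were Pcyt1b, Lpin1 (2 CpG), Pemt (3 CpG) and Pla2g4a (6 CpG). The most CpG-rich window was one of Lpin2, with 54 CpG. Letters were searched on both strands. GGGCGG was present in 63.6% of the windows of these genes and 51.7% of all windows, CCAAT in 40% and 37.4%, and TATAA in 23.6% and 17.6%. TCACCCCAC was present in 2 windows, 3.64% of those of these genes and 0.609% of all windows, and both belong to Pcyt1a and overlap each other. In the Pcyt1a sequence above it starts 116 bases before the start site. These are matches of letters only. Windows of one gene can overlap and are not independent.

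As a group the 42 genes were well expressed in the cord. Their median level was 237 base mean per kb, at percentile 76.9 of the 20403 genes with reads and a known exon length, whose median was 63.4. Of the 42 genes, 35 lay above that median, 22 above percentile 75 (216 per kb) and 11 above percentile 90. The 7 at or under the median were Pla2g4a, Pld1, Etnk2, Pemt, Lpin3, Agpat2 and Chkb, and only Chkb was under percentile 25 on this scale. Per kb of coding sequence, Lpin3 was also under it, at 24.6. Other genes of the pathway were listed under 58 symbols, in which 2 genes stand under both an old and a new name. The table held 56 of these symbols and 55 had a level, of which 49 were above the median and 27 above percentile 75, with a median percentile of 73.3. The highest of these were Abhd12, a lysophosphatidylserine lipase, at 2148 base mean per kb, Pitpna, a phosphatidylinositol transfer protein, at 2017, and Pld3 at 1727. The lowest were Gpat2 at 7.04, Gdpd3 at 16.2 and Pla2g5 at 17.8.

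**Figure D1:**
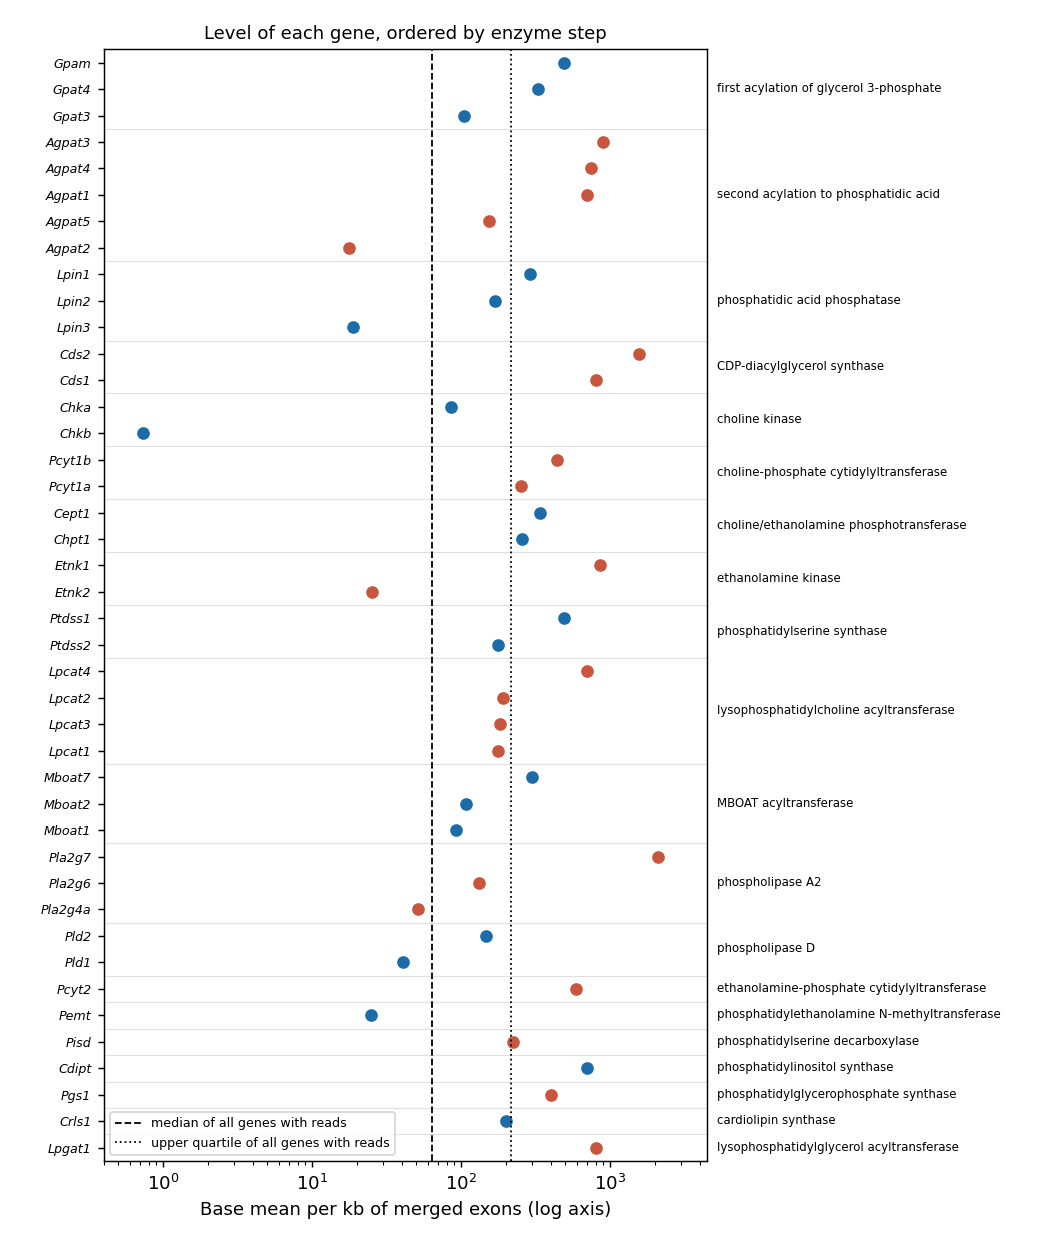
Level of each of the 42 genes, as base mean per kb of merged exons on a log axis, ordered by enzyme step named at the right, with colours alternating between steps. Points are the authors' mean over all 10 libraries, and dashed and dotted lines are the median (63.4) and upper quartile (216) of all genes with reads. Pla2g7 and Cds2 lie farthest right and Chkb farthest left.

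The 5 highest genes were Pla2g7, Cds2, Agpat3, Etnk1 and Cds1, and they held 38% of the summed level of all 42. Pla2g7, the platelet-activating factor acetylhydrolase, had a base mean of 6109 and 2103 per kb, at percentile 98.3. Cds2 followed with 1576 per kb. Agpat3, the next, was at 892 per kb. Of the 41 neighbouring pairs in the order, 24 lay within 1.1-fold of each other, and the widest gap, between Agpat2 and Chkb, was 24-fold. Without replicate values no neighbouring pair can be said to differ. The highest gene was 119.8 times the lowest but 1, Agpat2, and 2872 times the lowest, Chkb.

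**Figure D2:**
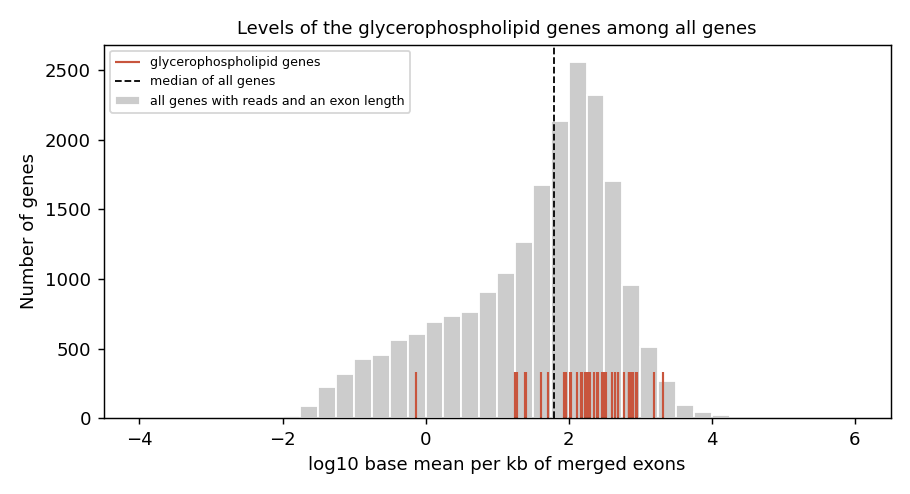
Number of genes by log10 base mean per kb for all 20403 genes with reads and an exon length (grey bars), with a red line for each of the 42 glycerophospholipid genes and a dashed line at the median of all genes. Most red lines lie right of the dashed line, and the lone line near 0 is Chkb.

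In the first acylation step, the mitochondrial enzyme gene Gpam was at 492 per kb and held 53.3% of the step, although per kb of coding sequence it held 41.5% and Gpat4 49.8%. The endoplasmic reticulum enzyme genes Gpat4 and Gpat3 were at 327 and 104 per kb, 35.4% and 11.3%. The second acylation, by the AGPAT enzymes, summed to 2518 per kb, 2.73 times the sum of the GPAT genes. This was the highest sum per kb of merged exons, ahead of 2379 for the CDS genes, but the CDS genes were ahead per kb of coding sequence (12523 against 11968) and with no length (17544 against 12793). Per kb of merged exons, the AGPAT sum was spread over several genes. Agpat3 alone held 51.4% of it per kb of coding sequence and 54.3% with no length. Agpat3 was at 892 per kb (35.4%), Agpat4 at 750.3 (29.8%) and Agpat1 at 703 (27.9%), with Agpat3 1.19 times Agpat4 and Agpat4 1.07 times Agpat1. Agpat5 was at 155 per kb. Agpat2, the main isozyme of adipose tissue, was at 17.6 per kb and held 0.697% of the step.

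At the branch point of phosphatidic acid, the lipin genes summed to 479.5 per kb and the CDS genes to 2379, a ratio of 4.96. The ratio depended on the length used. The sums were 892 and 2519 per kb of the longest transcript, 1729.8 and 12523 per kb of coding sequence, and 4956 and 17544 with no length. The phospholipid phosphatase genes Plpp3, Plpp1, Plpp2, Plpp4 and Plpp5 were outside the set and this ratio. They were at 1205, 565, 199, 114 and 66.7 per kb of merged exons. Lpin1 was at 291 per kb, 60.8% of the lipin sum, Lpin2 at 169 and Lpin3 at 18.9. Cds2 was at 1576 per kb and Cds1 at 804, a ratio of 1.96. Tamm41, the gene of a mitochondrial CDP-diacylglycerol synthase, was outside the set and the CDS sum, at 32.6 per kb of merged exons. Downstream of CDP-diacylglycerol, Cdipt, which makes phosphatidylinositol, was at 701 per kb. Pgs1, which makes phosphatidylglycerophosphate, a precursor of cardiolipin, was at 405, and Crls1, the cardiolipin synthase, was at 199.9.

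In the Kennedy pathway, the choline kinase genes summed to 85.7 per kb and the ethanolamine kinase genes to 886. Choline kinases can also use ethanolamine, so these sums do not divide the kinases cleanly between the choline and ethanolamine arms. Of the choline kinase genes, Chka was at 85 per kb and Chkb was listed at 0.732, with a base mean of 2.24. Chkb shared 86.5% of its read-length windows with other transcripts, among them a readthrough gene on the same strand, and the part of this overlap in its level and in the choline kinase shares was not tested. Of the ethanolamine kinase genes, Etnk1 was at 861 per kb (97.1%) and Etnk2 at 25.3. The ethanolamine kinase sum was 10.4 times the level of Chka alone. The size of the difference depended on the length used. The ethanolamine and choline kinase sums were 1895 and 221 per kb of the longest transcript. They were 9285 and 669 per kb of coding sequence, and 12295 and 1024 with no length. The next step was more even between the arms. The choline-phosphate cytidylyl transferase genes Pcyt1b and Pcyt1a were at 444 and 251 per kb. Pcyt2, the ethanolamine-phosphate cytidylyl transferase, was at 589.7, which was 0.849 times their sum. The direction depended on the length used. Pcyt2 was above that sum per kb of the longest transcript (1362 against 874). It was below the sum per kb of coding sequence (2115 against 3785) and with no length (2563 against 4236). Pcyt1b, known for its expression in brain, held 63.9% of the Pcyt1 sum. For the last step, Cept1, which uses both head groups, was at 337 per kb and Chpt1, which uses choline, at 257. The order of these 2 genes depended on the length used: Chpt1 held 43.3% of the step per kb of merged exons, but 54.1% per kb of the longest transcript, 63% per kb of coding sequence and 67.1% with no length. Selenoi, an ethanolamine phosphotransferase gene, was outside the set and these shares, at 138 per kb of merged exons.

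Pemt, the enzyme that methylates phosphatidylethanolamine to phosphatidylcholine and is best known from liver, was at 24.7 per kb, percentile 36.8. Phosphatidylserine is made by base exchange. Ptdss1, which exchanges the choline of phosphatidylcholine, was at 494 per kb, and Ptdss2, which exchanges the ethanolamine of phosphatidylethanolamine, was at 178. Ptdss1 thus held 73.6% of the step. Pisd, the mitochondrial phosphatidylserine decarboxylase, was at 224 per kb, percentile 75.8.

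**Figure D3:**
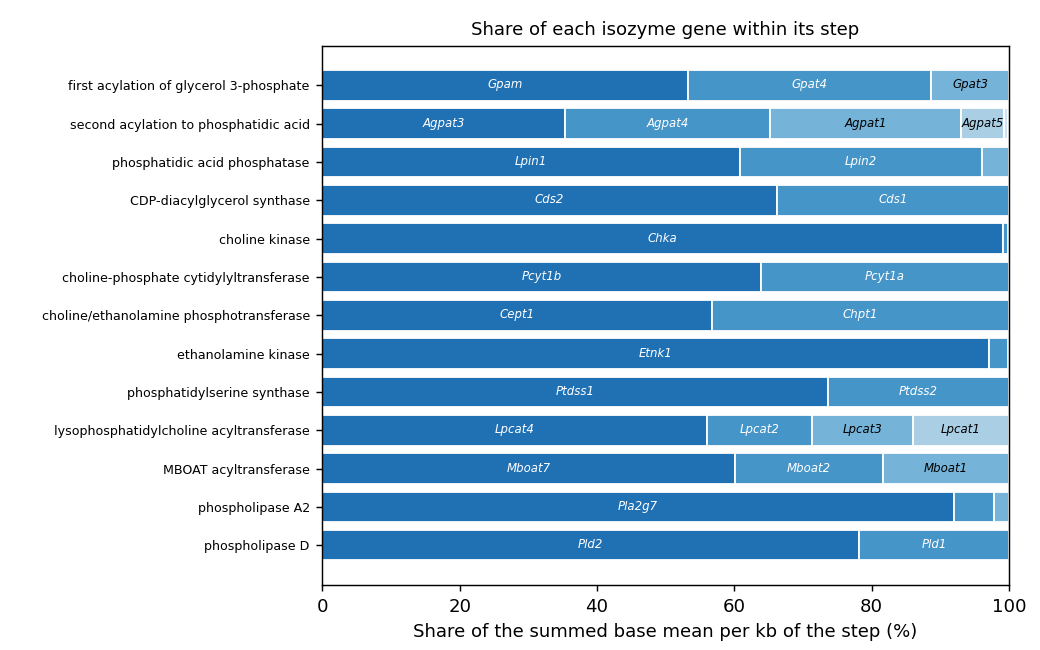
Share of each gene in the summed base mean per kb of its step, in percent, for the 13 steps with 2 or more genes. Darker segments are higher genes, and segments without a name are 6% or less. The leading gene held between 35.4% (Agpat3) and 99.1% (Chka) of its step.

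Across the 13 steps with 2 or more genes, the leading gene held a median of 63.9% of its step per kb of merged exons. It held over 75% in 4 of them: Chka, Etnk1, Pla2g7 and Pld2. This list depended on the length used. Pld2 held 69.6% per kb of the longest transcript, 66.8% per kb of coding sequence and 63.3% with no length. Cds2 was over 75% per kb of coding sequence (81.7%) and with no length (82%). The share of Chka rests on the low Chkb value and carries the same limit of shared sequence. The other 7 steps had 1 gene each. Some steps, such as the MBOAT and phospholipase A2 groups, join enzymes with different substrates, so a share there is not a share of 1 reaction.

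Among the genes of acyl chain remodelling, Lpcat4 was at 706 per kb, 56.1% of the lysophosphatidylcholine acyltransferase sum. Lpcat2, Lpcat3 and Lpcat1 were close together at 192, 184 and 176 per kb. Lpcat3 is known for putting polyunsaturated chains into phosphatidylcholine, and Lpcat1 for making the dipalmitoyl form of lung surfactant. Mboat7, which puts arachidonic acid into phosphatidylinositol, was at 301 per kb, 2.8 times Mboat2 (108) and 3.27 times Mboat1 (92.2). Lpgat1, a lysophospholipid acyltransferase gene listed as a step of its own, was at 802 per kb.

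Of the phospholipase A2 genes in the chosen set, Pla2g7 held 92% of the sum. The calcium-independent Pla2g6, whose loss causes infantile neuroaxonal dystrophy in humans, was at 132 per kb. Pla2g4a, the cytosolic phospholipase A2 that releases arachidonic acid, was at 51.4, percentile 46.5. Pla2g7 cleaves short or oxidised chains, so its sum with the other 2 joins enzymes with different substrates. Further phospholipase A2 genes were outside the set and are not in this sum. Pla2g15 was at 131 per kb, Pla2g12a at 90.6, Pla2g3 at 63.3 and Pla2g5 at 17.8. Plaat3, formerly Pla2g16, had a base mean of 1865 and no exon length here. Of the phospholipase D genes, which release phosphatidic acid from phosphatidylcholine, Pld2 was at 147 per kb and Pld1 at 41.

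Several of these genes share sequence with other transcripts. The authors counted uniquely mapped reads, which bears on copies elsewhere in the genome, such as the Pisd pseudogenes. Where annotated genes overlap in place, as Chkb and Gm44502 do, a read can map uniquely and still lie in both. How such reads were counted depends on the annotation and strand setting, which are not given. Windows of 100 bases along the longest protein-coding transcript of each gene were looked up in the transcripts of all other genes. For 26 of the 42 genes no window was shared, and for 3 over 20% were: Chkb (86.5%), Pisd (33.9%) and Cept1 (24.8%). Chkb, at chr15:89426349-89429927 in RefSeq (GRCm38.p6), lies wholly inside the readthrough gene Gm44502 at chr15:89416405-89429927, which also spans Cpt1b, the muscle form of carnitine palmitoyltransferase. Gm44502 was listed at 0 and Cpt1b had a base mean of 3.81. The part of this overlap in the Chkb level was not tested. The Cept1 windows are shared with Dennd2d on the other strand, which had a base mean of 27.6, and those of Pcyt1a (9.98%) with Slc51a on the other strand, which had a base mean of 0.673. Agpat5 shared 18.2% of its windows with Gm35934, Gpat3 11.1% with 4930458D05Rik, and Lpcat3 10.8% with Emg1. Gm35934, 4930458D05Rik and Emg1 lie on the other strand. Emg1 had a base mean of 516, and Gm35934 and 4930458D05Rik were not listed for the series.

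**Figure D4:**
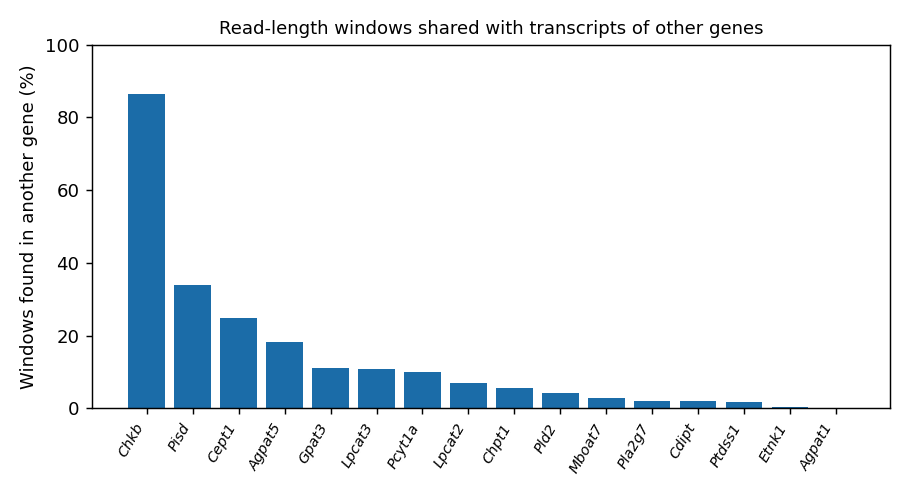
Percent of 100-base windows of the longest protein-coding transcript that occur unchanged in a transcript of another gene, for the 16 genes with any such window. Chkb stands at 86.5%, Pisd at 33.9% and Cept1 at 24.8%.

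Pisd has 3 pseudogene copies in the table. Pisd-ps3 had a base mean of 6617 and no exon length here, Pisd-ps1 of 268 and Pisd-ps2 of 125, beside 1289 for Pisd. In an alignment to the Pisd transcript Pisd-203 (GENCODE vM21), Pisd-ps1 was identical at 95.2% of 1115 aligned bases and Pisd-ps2 at 96.3% of 1046. The aligned part was bases 558 to 1685 and 611 to 1681 of the transcript, respectively, of 2491 in all. Pisd-ps3 was not aligned. The coding stretch of 90 bases in which most positions differ is printed here to show how alike the gene and these copies are where they align. It covers bases 380 to 469 of the Pisd coding sequence and spans 1 intron (chr5:32738908-32739213, minus strand, GRCm38), and capitals mark the 11 positions at which either copy differs from Pisd. Pisd-ps1 lies on chromosome 11 and Pisd-ps2 on chromosome 17.
Pisd: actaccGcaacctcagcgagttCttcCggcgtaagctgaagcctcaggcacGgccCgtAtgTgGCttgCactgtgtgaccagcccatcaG
Pisd-ps1: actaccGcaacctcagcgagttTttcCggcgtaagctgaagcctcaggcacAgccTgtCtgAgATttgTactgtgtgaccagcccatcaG
Pisd-ps2: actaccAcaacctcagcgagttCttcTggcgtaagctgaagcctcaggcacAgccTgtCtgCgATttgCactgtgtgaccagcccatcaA
Pisd-ps1 differs from Pisd at 8 of these positions and Pisd-ps2 at 9. The shared Pisd windows occur in Gm20671, Gm43695 and Pisd-ps2. Gm20671 and Gm43695 are not copies: they overlap Pisd in place on the same strand. They cover 20.1% and 3.41% of its exon bases, and neither was listed for the series. The part of this overlap and of the copies in the Pisd level was not tested.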

How the data were processed

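The samples were grouped by their labels as SOD1 G93A or WT, with 5 in each. According to the study's methods, the authors made stranded mRNA libraries, trimmed reads with Fastp, aligned them to mm10 with HISAT2 (2.1.0 per the submitters' processing notes), counted uniquely mapped reads with featureCounts (2.0.2) and compared genotypes with DESeq2. The gene annotation, the strand setting and the DESeq2 version are not given in the sources used here. The file deposited by the authors holds 1 row per gene. Its base mean, a signal made of counts divided by size factors and averaged over the 10 libraries by the authors, was the only column used. The other 5 columns hold the authors' fold change, its standard error, the Wald statistic, the p-value and the adjusted p-value of their genotype comparison, which were not used here. Consequently no genotype comparison was made.

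Of 25232 genes, 4259 had a base mean of 0. Base means were divided by merged exon length from GENCODE vM21 (GRCm38), because the RefSeq table gives gene spans without exons. Of the genes with reads, 97.3% had a length. Symbols of the table matched RefSeq GRCm38.p6 for 99.2% and GENCODE vM21 for 96.6%. The percentile of a gene is its place among genes with reads and a length. Calculations were tested on simulated data and used Python 3.11.15 with pandas 2.3.3, numpy 2.4.6 and Biopython 1.88. Named genes were every gene of the chosen set, the 3 highest and 3 lowest of the other pathway genes, and the pseudogene copies. From the other pathway genes, Tamm41, Selenoi, the Plpp genes and further phospholipase A2 genes were also named, after the values were seen. Proteins were not analysed here. Some tissue markers are not reported here. The genes and lists were chosen with earlier results of these data known. The alternatives were other lengths and other background genes.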

Additional observations from a re-analysis of the deposited data

How the results depend on the processing

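The deposited values carry no error, so any change in a median is given as moved. The median level of the 42 genes was 237 per kb of merged exons, 380.4 per kb of the longest transcript, 957 per kb of coding sequence and 1742 with no length, which are different units. Their median percentile was 76.9, and 80.4, 78.7 and 84.9 on those scales, 80.7 against all genes listed and 69.8 against those whose base mean was 10 or more. The median share of the leading gene was 63.9%, and 68%, 66.8% and 64.8% on those scales. The leading gene was the same in 12 of 13 steps per kb of the longest transcript, 11 with coding length and 12 with no length. Chpt1 replaced Cept1 on all 3, and Gpat4 (49.8%) replaced Gpam (41.5%) with coding length. The CDS genes replaced the AGPAT genes as the step with the highest sum with coding length and with no length. Genes above the median numbered 31 to 37 and above percentile 75 numbered 19 to 27, over the length and background choices. Leaving out Chkb and Pisd, which was chosen after seeing the data, gave 34, 21 and a median percentile of 78.2. Matching symbols without regard to case and with synonyms found the same number, 42. Depth per library is unknown. No paired analysis was possible because the file holds no values of single libraries.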
